A study of Homo sapiens with 6 samples.

Results

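Immune lineage markers are genes whose transcripts tell leukocyte types apart, and they were examined here in JIMT-1, a human carcinoma cell line of HER2+ breast cancer grown without immune cells. The markers were chosen by name: rows of the panel starting with CD and a digit (CD274 and CD276 left out), GZM, KLR, MS4A or TPSA, and 11 single genes, of which PTPRC, CTLA4 and SH2D1A were not analysed here. The rule gave 27 of 758 panel genes. A mean of 40 linear normalized counts over the 6 samples, also part of the rule, separated 5 markers from 22 at the floor, so the split itself is a description and was not tested. JIMT-1 came from a patient whose tumour had become resistant to trastuzumab. Cells were treated for 24 h with PBS (CTL, 3 samples) or with 250 µM aCT1 (3 samples), a peptide modelled on the C-terminus of connexin 43 and joined to an antennapedia sequence for cell entry. RNA was counted on the nCounter Breast Cancer 360 panel, which tallies barcoded probes one by one without amplification. All samples are of the same line, and the labels do not say whether samples of a group came from separate cultures, so p-values measure the spread between these samples, which may be technical.

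T cells are recognised by their receptor complex and its co-receptors CD8 and CD4, natural killer and cytotoxic T cells by granzymes and perforin, mast cells by carboxypeptidase A3 and tryptase, and macrophages by scavenger receptors such as CD163. In breast tumour tissue such transcripts measure infiltrating leukocytes, which a cultured carcinoma line lacks. Some CD names belong to surface proteins that carcinoma cells make themselves. CD44 is the hyaluronan receptor and CD24 a small glycosylated surface protein, and both are used to describe breast cancer cell states.

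Between 1437572 and 1494919 counts per sample were read back for the 758 panel genes. Over the 758 genes, samples of one group were further apart than counting alone would put them, as the chi-square of each pair was 1.66 to 3.11 times its degrees of freedom. Epithelial identity was read from 8 panel genes. Of these, 6 had a mean of 40 or more: CDH1, KRT5, KRT7, ERBB2, GRB7 and ELF3, with means from 2000.5 (ELF3) to 9985 (GRB7). KRT14 and KRT17 were at the floor with means of 21.2 and 14.2, whereas KRT5, like them a keratin of basal cells, had a mean of 3347. Each nCounter probe captures its target with its own efficiency, and a probe without target still collects a few counts. Levels of different genes therefore place probes within this panel and do not rank transcripts by abundance. Negative-control probes were not used here, so 40 is the cut-off of the rule and not a measured background.

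CD44 was by far the brightest marker. It had 43876, 45352 and 44349 linear normalized counts in the CTL samples and 43788, 43800.3 and 43307 in the aCT1 samples. Every aCT1 value lay below every CTL value, and 2 of the 758 panel genes had a higher mean. CD24 came next, with 1552, 1288 and 1703 counts in CTL and 1905, 1311 and 895 in aCT1, so that both the highest and the lowest sample were aCT1 samples. CD24 has processed pseudogene copies elsewhere in the genome, and whether the probe separates them was not tested.

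The other 3 markers above the cut-off lay just over it. CD68, a lysosomal glycoprotein abundant in macrophages, had 51.9, 49.9 and 44.2 counts in CTL and 44.1, 54.8 and 40.9 in aCT1. PDCD1, the inhibitory T cell receptor PD-1, had 33.3, 40.9 and 54.3 in CTL and 53.1, 42.8 and 41.9 in aCT1. CD8A, the alpha chain of the CD8 co-receptor, had 35.2, 39.9 and 54.3 in CTL and 46.1, 37.9 and 37.8 in aCT1. For all of these, the groups overlapped, and CD8A reached 40 in only 2 of 6 samples. Between CD68 and CD24 lay 250 panel genes and no marker, whereas 22 panel genes had means from 30 to 40 and 21 from 40 to 50. Without CTL replicate 3 the mean of CD8A fell under 40, and at a cut-off of 50 CD44 and CD24 alone remained above it.

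**Figure D1:**
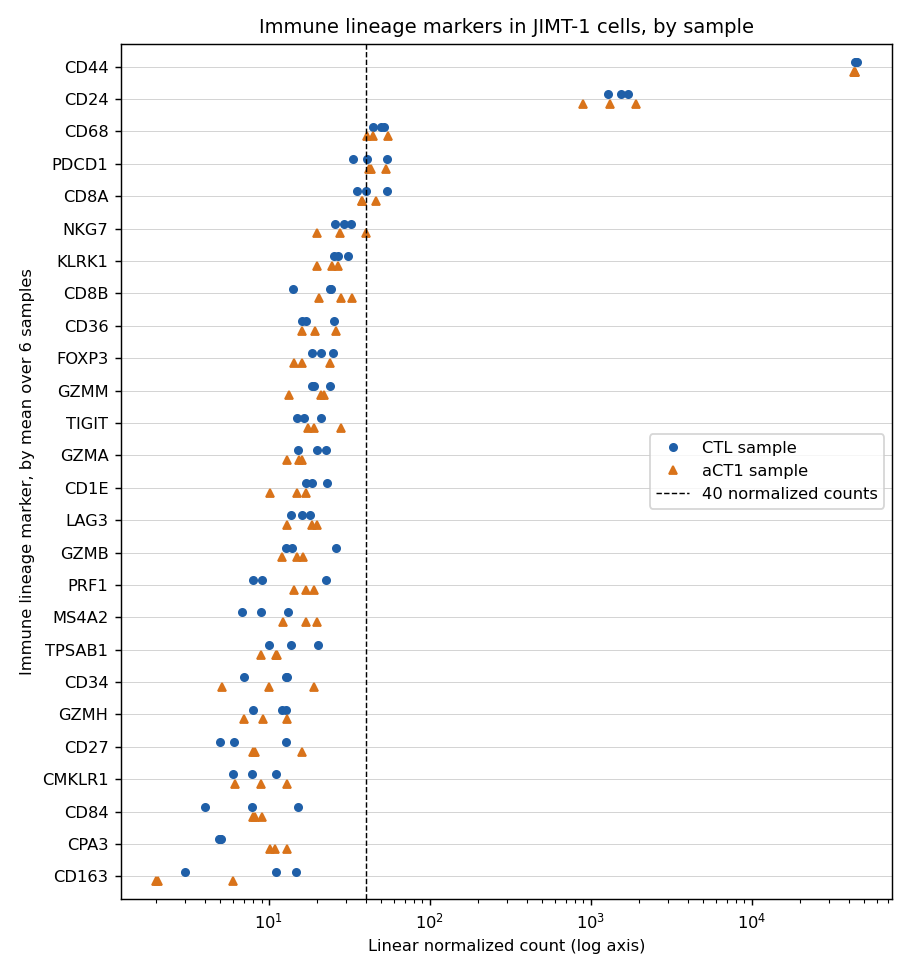
Linear normalized count (log axis) of 26 of the 27 markers in each of the 3 CTL samples (circles) and 3 aCT1 samples (triangles), ordered by the mean over 6 samples, with the cut-off of 40 dashed. CD44 and CD24 stand apart on the right, CD68, PDCD1 and CD8A straddle or touch the cut-off, and the other 21 markers plotted have means to its left.

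The markers nearest below the cut-off were NKG7, a granule membrane protein of cytotoxic lymphocytes, with a mean of 29.2 counts, KLRK1, the activating receptor NKG2D, with 25.8, and CD8B, the partner chain of CD8A, with 24.0. CD8B has a near-identical copy, CD8B2, from which the probe may not separate it. NKG7 had 29.4, 25.9 and 32.2 counts in CTL and 40.05, 19.9 and 27.6 in aCT1, so 1 sample reached the cut-off, as no sample of KLRK1 or CD8B did. CD8B had 24.5, 23.9 and 14.1 in CTL and 33.0, 27.9 and 20.4 in aCT1. The lowest CD8B value and the highest CD8A value of the CTL group came from the same sample, CTL replicate 3.

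Of the T cell list, CD8A, CD8B, FOXP3 and CD27 were analysed, and their summed level was 89.7 to 99.5 counts in CTL and 80.7 to 119 in aCT1. FOXP3, the regulatory T cell transcription factor, had a mean of 19.8 and CD27, a costimulatory receptor, one of 9.32. The checkpoint receptors TIGIT and LAG3, with means of 19.5 and 16.51, lay well below PDCD1, the third of that list, whose sum was 63.6 to 93.5 in CTL and 77.7 to 94.1 in aCT1. All 7 genes of the cytotoxic and natural killer list were at the floor. Besides NKG7 and KLRK1 these were the granzymes GZMM (19.7), GZMA (17.0), GZMB (16.02) and GZMH (10.3), serine proteases of cytotoxic granules, and PRF1 (14.97), the pore-forming perforin. PRF1 reached 22.5 counts in CTL replicate 1 but 7.98 and 9.05 in the other CTL samples, a wider range than the 14.3 to 18.9 of the aCT1 samples.

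Of the macrophage and dendritic cell list, CD36 (19.98), CD1E (16.8), CMKLR1 (8.83) and CD163 (6.46) were at the floor beside CD68. CD36 is a fatty acid and scavenger receptor, CD1E an intracellular protein of dendritic cells, and CMKLR1 the chemerin receptor. CD163, the haemoglobin scavenger receptor that defines many tissue macrophages, was the lowest marker of all, with 14.7, 2.99 and 11.1 counts in CTL and 6.01, 1.99 and 2.04 in aCT1. CD84, the single member of the pan-leukocyte list, had a mean of 8.68, and CD34, a sialomucin of blood stem cells and endothelium, one of 11.1.

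The mast cell list held CPA3, TPSAB1, MS4A2 and, outside the rule, the histamine-forming enzyme HDC, and all 4 were under 40. TPSAB1, a tryptase with a near-identical neighbour gene (TPSB2) from which the probe may not separate it, had 13.7, 9.97 and 20.1 counts in CTL and 11.01, 8.97 and 11.2 in aCT1. MS4A2, the beta chain of the IgE receptor, had 6.85, 8.97 and 13.1 in CTL and 20.02, 16.9 and 12.3 in aCT1, so the groups overlapped by 1 pair of samples (CTL replicate 3 and aCT1 replicate 3). CPA3, the carboxypeptidase of mast cell granules, had 4.89, 4.99 and 5.03 in CTL and 13.02, 10.96 and 10.2 in aCT1, with no overlap. The summed level of the 4 genes was 38.9 to 72.4 counts in CTL and 50.1 to 67.1 in aCT1.

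A sequence feature that the rule did not use was the CpG content of the promoters, taken as the number of CG dinucleotides (the same on both strands) in the 250 bases before each RefSeq transcription start (GRCh38.p14). Windows were matched for 20 of 27 markers, the others including CD84, CD8B, GZMM, KLRK1, LAG3 and TPSAB1. Over all 35116 windows the median was 11, with 42.9% holding 15 or more and 6.06% holding none. CD44 had 15 and CD24 20 in the window shown, or 17 to 27 over its 3 starts. The 15 matched markers at the floor had a median of 2, with 12 of them at 5 or fewer and 3, namely CPA3, MS4A2 and GZMH, at 0. The others on the floor were CD34 with 14, FOXP3 with 10 and PRF1 with 8. Of the markers just over the cut-off, CD68 had 1, PDCD1 had 7 and CD8A 5 to 17 over 4 starts. Over the panel, 352 matched genes of 40 or more had a median of 20 and 215 matched genes under 40 one of 9. These are descriptions of the windows and not tests.

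The windows of the brightest pair and of the 2 mast cell markers past the unadjusted threshold are given 5′ to 3′, with each CG in capitals. They were chosen by level and by p-value, and the mast cell windows, at 0 CG, do not stand for all markers at the floor. CD44 lies at chr11:35138921-35139170 (+ strand), CD24 at chr6:106975628-106975877 (- strand, the first of its listed starts), CPA3 at chr3:148865046-148865295 (+ strand) and MS4A2 at chr11:60088414-60088663 (+ strand).
CD44: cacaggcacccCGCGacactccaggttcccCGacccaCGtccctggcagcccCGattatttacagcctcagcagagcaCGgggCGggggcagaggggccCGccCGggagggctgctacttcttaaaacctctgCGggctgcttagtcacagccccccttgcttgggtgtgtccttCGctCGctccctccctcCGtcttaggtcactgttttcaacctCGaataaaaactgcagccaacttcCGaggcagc
CD24: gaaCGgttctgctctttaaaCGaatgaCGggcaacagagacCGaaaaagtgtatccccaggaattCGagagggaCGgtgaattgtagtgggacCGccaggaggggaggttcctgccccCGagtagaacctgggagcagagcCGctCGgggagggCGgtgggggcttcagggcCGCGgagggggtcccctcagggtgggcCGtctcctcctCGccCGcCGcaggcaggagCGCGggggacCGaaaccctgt
CPA3: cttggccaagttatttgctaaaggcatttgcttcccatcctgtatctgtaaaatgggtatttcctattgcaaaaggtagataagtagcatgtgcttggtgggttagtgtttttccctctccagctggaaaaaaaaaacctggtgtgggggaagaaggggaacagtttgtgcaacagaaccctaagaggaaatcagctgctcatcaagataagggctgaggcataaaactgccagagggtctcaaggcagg
MS4A2: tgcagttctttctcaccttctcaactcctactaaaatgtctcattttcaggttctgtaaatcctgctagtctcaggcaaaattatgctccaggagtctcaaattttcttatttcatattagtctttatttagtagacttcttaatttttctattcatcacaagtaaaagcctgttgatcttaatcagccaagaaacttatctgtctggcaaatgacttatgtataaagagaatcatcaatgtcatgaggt

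**Figure D2:**
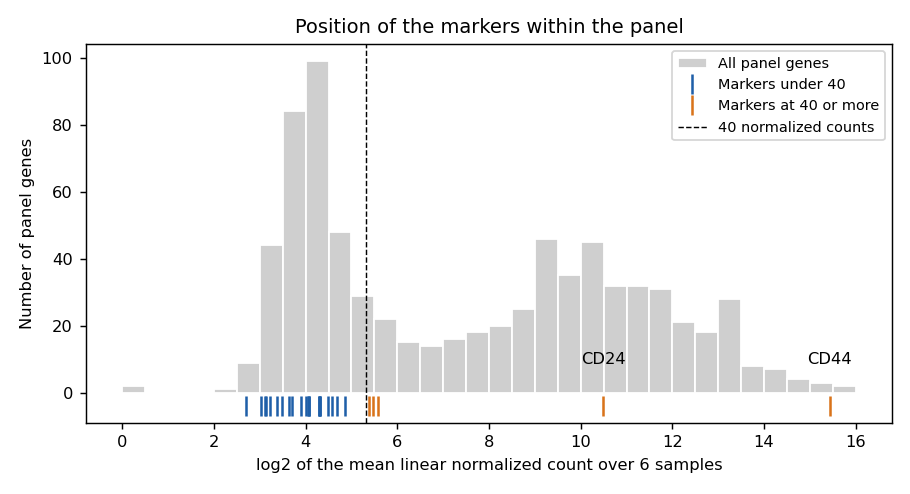
Histogram of log2 mean linear normalized counts of all 758 panel genes (bars), with short vertical marks below it for the 22 markers under 40 and the 5 at 40 or more. The marks under 40 lie among the 304 panel genes on the left of the dashed line at 40, those of CD68, PDCD1 and CD8A lie just to its right, and CD24 and CD44 lie far to the right.

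Many other genes lay at the floor. Of all panel genes, 304 (40.1%) had a mean under 40, against 22 of 27 markers (81.5%). The median level of the 22 was 16.3 linear normalized counts, and that of the 282 other genes under 40 was 16.8. A further list of 63 immune genes outside the rule was read, of which 14 were analysed. Of these, 3 had a mean of 40 or more, namely GATA3 (9066), which is also a luminal epithelial transcription factor, CYBB (55.4), an NADPH oxidase subunit, and CSF3R (41.5), the G-CSF receptor. The other 11 lay between 10.0 (CXCL13) and 23.6 (CCL5).

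The spread between samples of a group was set against the spread that counting alone gives, as a variance ratio that is 1 where counting accounts for all of it. For the 22 markers at the floor the median ratio was 1.01, from 0.0917 for CPA3 to 2.68 for CD34, and for the other panel genes under 40 it was 1.15. CD68, PDCD1 and CD8A had ratios of 0.73, 1.75 and 1.43. CD24 differed from the rest, with a ratio of 107, the highest of all 758 genes, where the next highest was 57.4. Its within-group SD on the log2 scale was 0.41, and none of the 143 panel genes within 2-fold of its level had a larger one, with a median of 0.050. CD24 varied 2.13-fold between the highest and the lowest sample, whereas CD44 varied 1.05-fold.

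**Figure D3:**
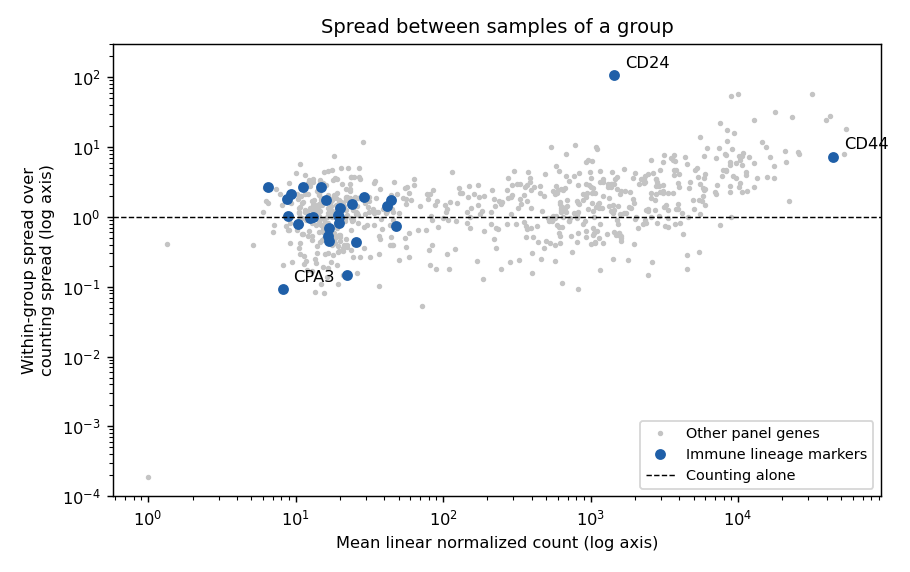
Ratio of the within-group variance of counts to the variance from counting alone (log axis) against the mean linear normalized count (log axis), for the 27 markers and the other panel genes, with a dashed line at a ratio of 1. Markers at the floor scatter around 1, CPA3 lies lowest among the markers at 0.0917, and CD24 lies above every other gene at 107.

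The samples also differed in the height of the floor, and not by group. The 22 markers under 40 summed to 362, 308 and 379 linear normalized counts in the CTL samples and to 417, 328 and 306 in the aCT1 samples. The highest sum belonged to aCT1 replicate 1 and the lowest to aCT1 replicate 3, so the CTL range lay inside the aCT1 range. The order of the 6 samples by this sum was also their order by CD24, an order shared by 3 of the 758 genes (0.396%), CD24 included. The share is a description and was not tested. The lowest sums, 308 in CTL replicate 2 and 306 in aCT1 replicate 3, lie so close that their order is not firm. The likeness to the order of CD24 was noticed after the values were seen, it rests on 6 samples, and its cause was not tested. The 282 other genes under 40 put the same 2 samples highest, with sums of 5692 in aCT1 replicate 1 and 5509 in CTL replicate 3. Their lowest sample was CTL replicate 2 (4591) and not aCT1 replicate 3 (4662), so for these genes the CTL range did not lie inside the aCT1 range, and their order of samples was not that of CD24.

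**Figure D4:**
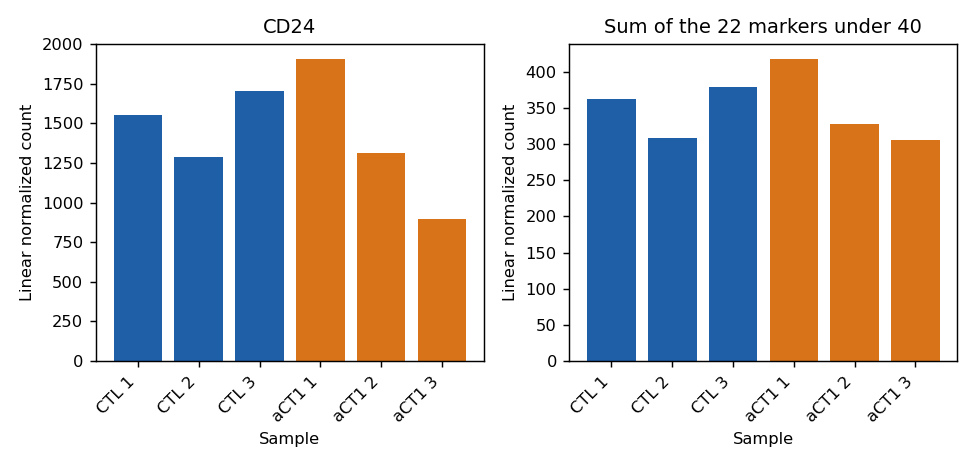
Linear normalized count of CD24 (left) and summed linear normalized counts of the 22 markers under 40 (right) in each of the 3 CTL samples (blue) and 3 aCT1 samples (orange). In both panels aCT1 replicate 1 is highest, CTL replicate 3 second and aCT1 replicate 3 lowest.

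The comparison of aCT1 with CTL asked whether the peptide had changed any of these transcripts after 24 h. In limma's moderated test over all 758 genes, 2 of 27 markers (7.41%) had an unadjusted p under 0.05, CPA3 and MS4A2, both higher in aCT1, against 6.33% of all genes tested. In this fit the markers were called about as often as the panel. With the samples centred on the floor, a setting chosen after the data were seen, 4 of 27 (14.8%) were called, against 3.83% of all genes. After Benjamini-Hochberg adjustment, 1 marker, CPA3, was called, against 0.132% of all genes, which is CPA3 itself. Of the 27, 12 had a log2 fold change above 0 and 15 below, with a median of -0.051, and over all genes the median was 0.018. Of the 22 at the floor, 11 lay on each side. The 3 values of a group lay wholly on one side of the other group in 2 markers (7.41%), CPA3 and CD44, against 14.2% of all genes.

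CPA3 had higher values in aCT1, all of them at the floor. The CTL mean was 4.97 ± 0.068 linear normalized counts and the aCT1 mean 11.4 ± 1.45 (SD over n = 3 samples each). On the log2 scale it was higher by 1.19 with a standard error of 0.097 (limma adjusted p = 0.0427), and higher in 3 of 3 aCT1 samples. The counts behind it were 5, 5 and 5 in CTL and 13, 11 and 10 in aCT1. For such counts the standard error from counting is 0.45, larger than the one in the test. Its promoter window, printed with the others, holds 0 CG. So do those of MS4A2 (log2 fold change 0.79) and GZMH (-0.18), and a link with the fold change was not tested. For CPA3, an exact permutation test of 3 against 3 gave a two-sided p = 0.1, the smallest it allows. Over 14 alternative settings the log2 fold change lay between 0.51 and 1.27 and the limma adjusted p between 0.0164 and 0.584, under 0.05 in 2 of them. These 2 were the floor-centred fit (0.0164), chosen after the data were seen, and the fit without aCT1 replicate 1 (0.0185). Every aCT1 and every CTL value lay far under the cut-off of 40, where counts without target were not separated from counts of transcript.

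For MS4A2 the CTL mean was 9.63 ± 3.16 and the aCT1 mean 16.4 ± 3.91 linear normalized counts (SD over n = 3 samples each). Its log2 fold change was 0.79 (95% interval 0.016 to 1.57), with an unadjusted p of 0.0469 in limma and, over all genes, an adjusted p of 0.716. MS4A2 kept an unadjusted p under 0.05 in 7 of 14 alternatives, the floor-centred fit among them. The other genes of the mast cell list had values of the opposite sign. TPSAB1 had a log2 fold change of -0.44 (95% interval -1.14 to 0.27, limma adjusted p = 0.796) and HDC one of -0.071 (95% interval -0.95 to 0.81). In the list of 4, 2 were thus higher and 2 lower.

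**Figure D5:**
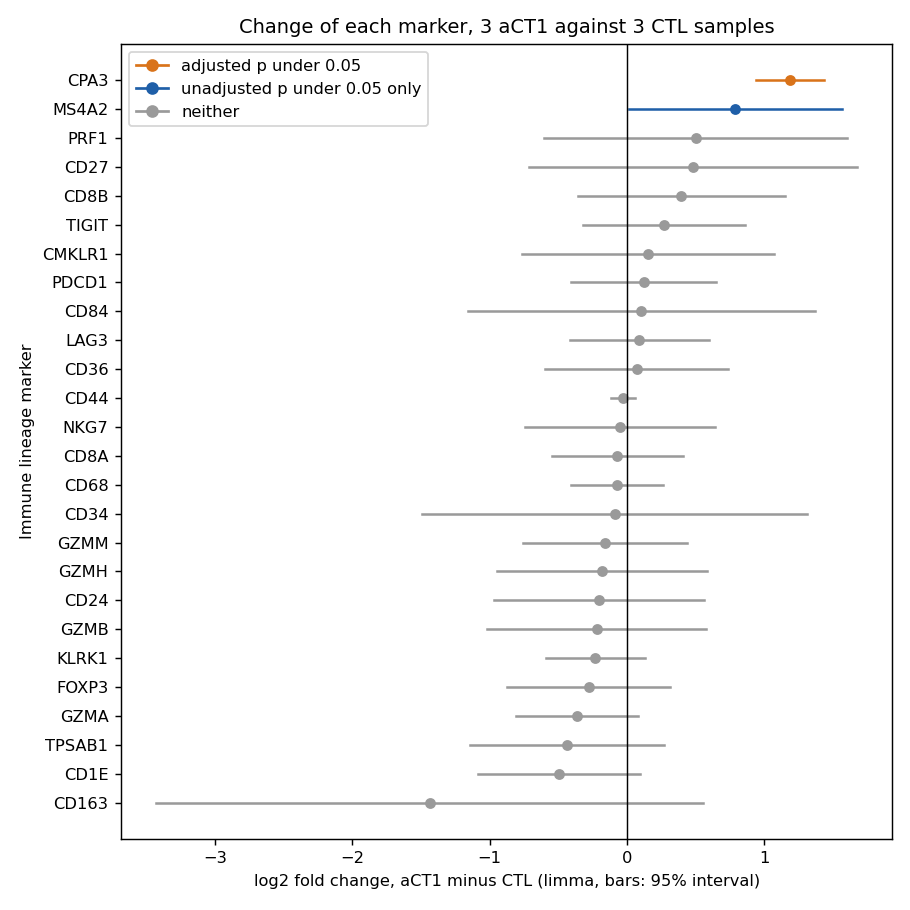
log2 fold change of aCT1 minus CTL with its 95% interval from limma for 26 of the 27 markers, ordered by size and coloured by the test. The interval of CPA3 (0.94 to 1.44) and that of MS4A2 (0.016 to 1.57) lie above 0, all others plotted cross 0, and CD163 has the widest.

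Of the 5 markers at 40 or more, 0 had an unadjusted limma p under 0.05, against 6.61% of all 454 panel genes of that level. After adjustment 0 of the 454 were called. With 5 markers, 0 calls cannot be told apart from that share. CD44 had a log2 fold change of -0.029 (95% interval -0.11 to 0.056, limma adjusted p = 0.933), from 44526 ± 753 to 43632 ± 281 counts (SD, n = 3 each), and the exact permutation p was 0.1, the smallest possible. CD24 had a log2 fold change of -0.20, and with its spread between samples the interval ran from -0.97 to 0.56 (limma adjusted p = 0.966). Without aCT1 replicate 3 its log2 fold change was 0.071, of the opposite sign. In bulk RNA, fewer cells with the transcript and less of it per cell cannot be told apart. The intervals were -0.41 to 0.27 for CD68, -0.41 to 0.65 for PDCD1 and -0.55 to 0.41 for CD8A. These intervals leave room for changes in either direction, and a p above the threshold does not show that the levels were equal.

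At the floor the precision was lower still. The distance from the log2 fold change to either end of its 95% interval had a median of 0.70 over the 22 markers. Among them it ran from 0.23 to 1.99 (CD163). The median was 0.71 over the 282 other panel genes under 40. Over the panel genes of 40 or more that are not markers it was 0.13. Of the 7 cytotoxic and natural killer genes, 6 had a log2 fold change below 0, against 312 of all 758 genes. The direction of the list was not tested. An unadjusted limma p under 0.05 was reached by 0 of the 7, against 6.33% of all genes. The closest was GZMA at -0.36 (unadjusted p 0.0898, adjusted p 0.741, limma). CD1E had -0.50 (unadjusted limma p 0.0829) and CD163 had -1.44 (unadjusted limma p 0.124), the latter from counts between 2 and 15. Each had an unadjusted p under 0.05 in 4 of 14 alternatives, the floor-centred fit among them, and an adjusted p under 0.05 in 0. Leaving out 1 sample gave log2 fold changes of -2.13 (CTL replicate 2 left out) to -0.99 (CTL replicate 1) for CD163 and of -0.65 (aCT1 replicate 1) to -0.28 (aCT1 replicate 3) for CD1E. The 3 checkpoint receptors PDCD1, LAG3 and TIGIT had log2 fold changes of 0.12, 0.090 and 0.27. Here 0 of 3 had an unadjusted limma p under 0.05, against the same 6.33% of all genes. Of the 14 other immune genes of the fixed list, 0 had an unadjusted limma p under 0.05, with 9 above 0 and 5 below. Over all genes 446 lay above 0 and 312 below. Lists of 3, 7 and 14 genes are too short for 0 calls to set them apart from 6.33%.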

How the data were processed

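Per the paper's methods, the authors hybridized total RNA of JIMT-1 cells to the nCounter Breast Cancer 360 panel and scaled the counts by housekeeping genes with nSolver 4.0. The deposited table gives 758 genes as a linear signal, called linear normalized counts here, and again as log2 values, which equal its logarithm. No background subtraction is named in the sources used here. Within each sample every linear value divided by a single factor lay within 0.01 of a whole number, so the counts before the factor were read back and used for totals, counting errors and the variance ratio.

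The aCT1 samples were compared with the CTL samples by limma 3.58.1 in R 4.3.3 on the log2 values of all 758 genes, two-sided, with Benjamini-Hochberg adjustment over all of them and no filter. Summaries used Python 3.11.15. The test was tried on simulated counts with the same extra noise for every gene. That setting lacks the spread of CD24, and no result given here rests on it. All 27 marker names matched RefSeq. The values of 1 marker are not reported here, though it stays in the counts and sums. The members, lists and cut-off were chosen with earlier results of these data known. Named with values were the markers of 40 or more, the 3 just under it, a fixed set of lineage markers, and markers with an unadjusted p under 0.05 or without overlap. The alternatives tried were each sample left out in turn, blocking on replicate number, fitting only genes whose mean reached 40, quantile normalization, median centring, 1 or 10 added before the log, a trend in the variance, no moderation, and floor centring. The last, chosen after seeing the data, subtracts from each sample its median over genes under 40. The standard error from counting covers counting error only, and every interval given is from limma.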

Additional observations from a re-analysis of the deposited data

How the results depend on the processing

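The number of markers above the cut-off was 5 and became 2 at a cut-off of 50 and 3 when 40 was asked of every sample. It was 4 without CTL replicate 3. The number with an unadjusted limma p under 0.05 was 2 and became 1 without moderation, 0 with a mean of at least 40 (which leaves 5 markers in the fit and neither CPA3 nor MS4A2), 4 with the replicate block and 4 with floor centring. As a share of markers the last 2 are 14.8%, against 4.62% of all genes with the block and 3.83% with floor centring, where the test as reported had 7.41% against 6.33%. Without moderation the share was 3.70% of markers, against 8.31% of all genes. With a mean of at least 40 it was 0 of 5 markers, against 11.5% of the genes in that fit. With median centring, quantile normalization or the variance trend it was 11.1% of markers, against 8.05%, 7.92% and 9.37% of all genes. Leaving out one sample gave 1 to 3 markers (3.70% to 11.1%), against 5.15% to 7.39% of all genes. By direction it was 2 higher and 0 lower, 1 and 2 with median centring, 2 and 1 with quantile normalization or the variance trend, and 2 and 2 with floor centring. The number with an adjusted limma p under 0.05 was 1 and became 0 without moderation, with the variance trend (3 at an unadjusted p under 0.05), with either pseudocount, with median centring, with quantile normalization, with a mean of at least 40 and with the replicate block. Over all genes of those fits the number was 0 as well. Leaving out one sample gave 0 to 1 markers, and 0 to 1 over all genes. The limma adjusted p of CPA3 then went from 0.0185 without aCT1 replicate 1 to 0.398 without CTL replicate 3. For settings other than the filter the cause was not tested. The median log2 fold change of the markers was -0.051 and turned to 0.023 when CTL replicate 3 was left out and to 0.071 when aCT1 replicate 3 was.

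The paired fit (replicate block) called CPA3, CD163, CD27 and CD8B at an unadjusted p under 0.05, 14.8% of markers against 4.62% of all genes, and CPA3 had an adjusted p of 0.584. Across genes, what samples of the same number had left after subtracting group means correlated at 0.059, 0.109 and -0.108, and 2 of 6 samples correlated best with their own number. Whether samples of the same number were handled together cannot be told from these values or from the labels, which give only a number.

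Among uncalled markers, median centring turned CD36 to -0.026 and LAG3 to -0.0074, and a pseudocount of 10 turned CD84 to -0.0034. Markers not called with all samples reached an unadjusted p under 0.05 with one sample left out in these cases. They were PRF1 (0.97, without CTL replicate 1), CD163 (-2.13) and TPSAB1 (-0.68, both without CTL replicate 2), GZMA (-0.53, without CTL replicate 3), and FOXP3 (-0.50) and CD1E (-0.65, both without aCT1 replicate 1). MS4A2 lost it without CTL replicate 1 or 2 or aCT1 replicate 1 or 2. With one sample left out the sign changed within these ranges of log2 fold change. CD24 ranged from -0.47 to 0.071, CD68 from -0.19 to 0.018, PDCD1 from -0.045 to 0.31, CD8A from -0.20 to 0.11, NKG7 from -0.31 to 0.20 and CD36 from -0.12 to 0.28. GZMM ranged from -0.29 to 0.073, LAG3 from -0.031 to 0.28, GZMB from -0.42 to 0.10, CD34 from -0.56 to 0.39, GZMH from -0.42 to 0.033, CMKLR1 from -0.11 to 0.43 and CD84 from -0.38 to 0.58. The count test listed among the alternatives (edgeR) was not run, because the factors of 4 samples lie too close to 1 for the read-back counts to pass the criterion set for that test. For the lowest markers few counts were recorded, from 2 to 15 per sample for CD163 and from 5 to 13 for CPA3.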
